A study of Mus musculus with 4 samples.

Results

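The 36 genes described here make the machinery that copies DNA and the enzymes and regulators that a cell switches on for S phase. They were listed for their function, and every one was found on the array, which makes them 36 of the 19920 genes that had a probe set annotated with exactly 1 gene symbol. They were measured by 39 of the 35556 probe sets in the table, because Pcna, Slbp and Tk1 had 2 each. RNA came from bone marrow cells sorted as Flt3(-) LSK, a fraction without mature lineage markers or surface Flt3, with Sca-1 and c-Kit, that is rich in blood stem cells. The GABPα-deficient group, 2 arrays, came from mice of genotype Mx1Cre-GABPa(FL/-), which carry a floxed and a null allele of Gabpa. The control group, also 2 arrays, came from mice of genotype Mx1Cre-GABPa(FL/+), which carry a floxed and a wild-type allele and are therefore not fully wild-type. Mice of both groups carried the Mx1Cre transgene, whose promoter answers to interferon, were 6 to 8 weeks old, stemmed from a stock backcrossed for 4 generations to C57/BL6, and had their marrow taken 4 days after their final dose of pIpC, a synthetic RNA duplex that induces interferon and so the Cre recombinase. The floxed allele was thus exposed to Cre in both groups, so control cells could be left with 1 working Gabpa allele. Whether a sample was 1 animal or a pool is not given in the labels, so the p-values below measure the spread between these samples only.

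Replication of DNA begins at origins. The origin recognition complex, CDC6 and CDT1 load the ring-shaped MCM helicase in G1, which is called licensing. At the start of S phase, CDC45 and the GINS complex join the ring and turn it into a working helicase. DNA polymerase α with primase then lays down primers, polymerases ε and δ extend them while held by the sliding clamp PCNA, and flap endonuclease tidies the lagging strand. Ribonucleotide reductase, thymidylate synthase and thymidine kinase supply the building blocks, and CAF-1 packs the new DNA into nucleosomes. Most of these genes are transcribed as a wave by E2F factors once cyclin-dependent kinases, that of cyclin E among them, have inactivated the retinoblastoma family. Blood stem cells of the adult are mostly out of cycle, whereas their dividing progeny, early red cell precursors among them, copy DNA often. GABP, the ETS-family factor whose DNA-binding subunit is encoded by Gabpa, has been tied in mouse fibroblasts to Skp2, Tyms and Pola1 and to entry into S phase.

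All values are log2 expression values, as RMA gives them, and differences are GABPα-deficient minus control. Array medians lay between 5.87 and 6.01 on the 4 arrays, and correlations over all probe sets, which are not independent, ran from 0.923 to 0.960. Arrays give no read depth, so the number of arrays limits the precision. RNA input is given only as a range, 800 pg to 50 ng, the same for every array, and its part in the values was not tested. Gabpa itself read 6.43 and 7.85 on the GABPα-deficient arrays, against 8.43 and 7.28 on the control arrays (log2 difference −0.71, SE 0.68, limma adjusted p = 0.605). The groups overlapped for this gene. No label says whether its probes lie in the deleted exons, so the values are no check of the deletion. Kit, a gene of the sorting gate, read 7.70 and 8.50 on the GABPα-deficient arrays and 10.21 on both control arrays. Flt3, excluded by the gate at the cell surface, read 5.68 and 5.95 on the GABPα-deficient arrays, against 8.43 and 9.26 on the control arrays. The Sca-1 gene, Ly6a, was not analysed here for want of a single-symbol probe set.

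Cyclin E1 gave the largest difference among these 36 genes. Ccne1 averaged 9.17 ± 0.56 on the GABPα-deficient arrays and 7.36 ± 0.13 on the control arrays (SD, n = 2 each), 3.49 times as high on the linear scale. Rrm2, the S phase subunit of ribonucleotide reductase, Rfc3 of the clamp loader, the flap endonuclease gene Fen1 and the licensing factor gene Cdc6 read 1.39 to 1.93 times as high in GABPα-deficient cells. Pole, the catalytic subunit of polymerase ε, averaged 0.86 log2 units lower in GABPα-deficient than in control cells. None of the 36 genes passed an adjusted p under 0.05 in limma's fit over all probe sets (lowest adjusted p = 0.318, for Ccne1), and 0% of all probe sets did.

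At an unadjusted p under 0.05, 5 of the 36 genes were higher in GABPα-deficient cells (Ccne1, Rrm2, Rfc3, Fen1 and Cdc6), or 13.9%, where the share over all single-symbol genes was 6.99%. Only Pole was lower at that threshold, 2.78% of the list, against 6.37% of all genes. The count of higher genes was 10 without GABPα-deficient replicate 2, 3 without control replicate 1, and 1 without either GABPα-deficient replicate 1 or control replicate 2. The count of lower genes was 4 without GABPα-deficient replicate 2 and 0 without either control array. Ccne1 was past that threshold under every alternative run, and each of the other 5 named genes missed it under at least 1. After cyclic loess Cdc6, Rfc3 and Pole missed it and Mcm5 and Tk1 passed. After subtraction of array medians Rrm2, Rfc3 and Fen1 missed it, and Mcm6 passed on the low side. With an intensity trend Cdc6, Rfc3, Fen1 and Pole missed it, and without the dimmer 50% of probe sets Rfc3 did. With a replicate block Cdc6 and Fen1 missed it, and Prim1 passed on the low side. The groups did not overlap for 15 of the 36, or 41.7%, a smaller share than the 58.1% of all genes. GABPα-deficient arrays lay above the controls for 9 of these and below for 6, where the shares over all genes were 42.9% and 15.2%. The median difference of the 36 genes was 0.21, beside 0.16 over all single-symbol genes, and 24 of 36 (66.7%) were above 0, beside 67.6%. Over the 12861 genes at least as bright as the dimmest of the 36, the median was 0.11 and 58.3% were above 0. The 36 differences ranged from −1.60 for Prim1 to 1.80 for Ccne1. With 2 arrays against 2, an exact two-sided permutation test of one gene cannot go below p = 0.333.

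**Figure D1:**
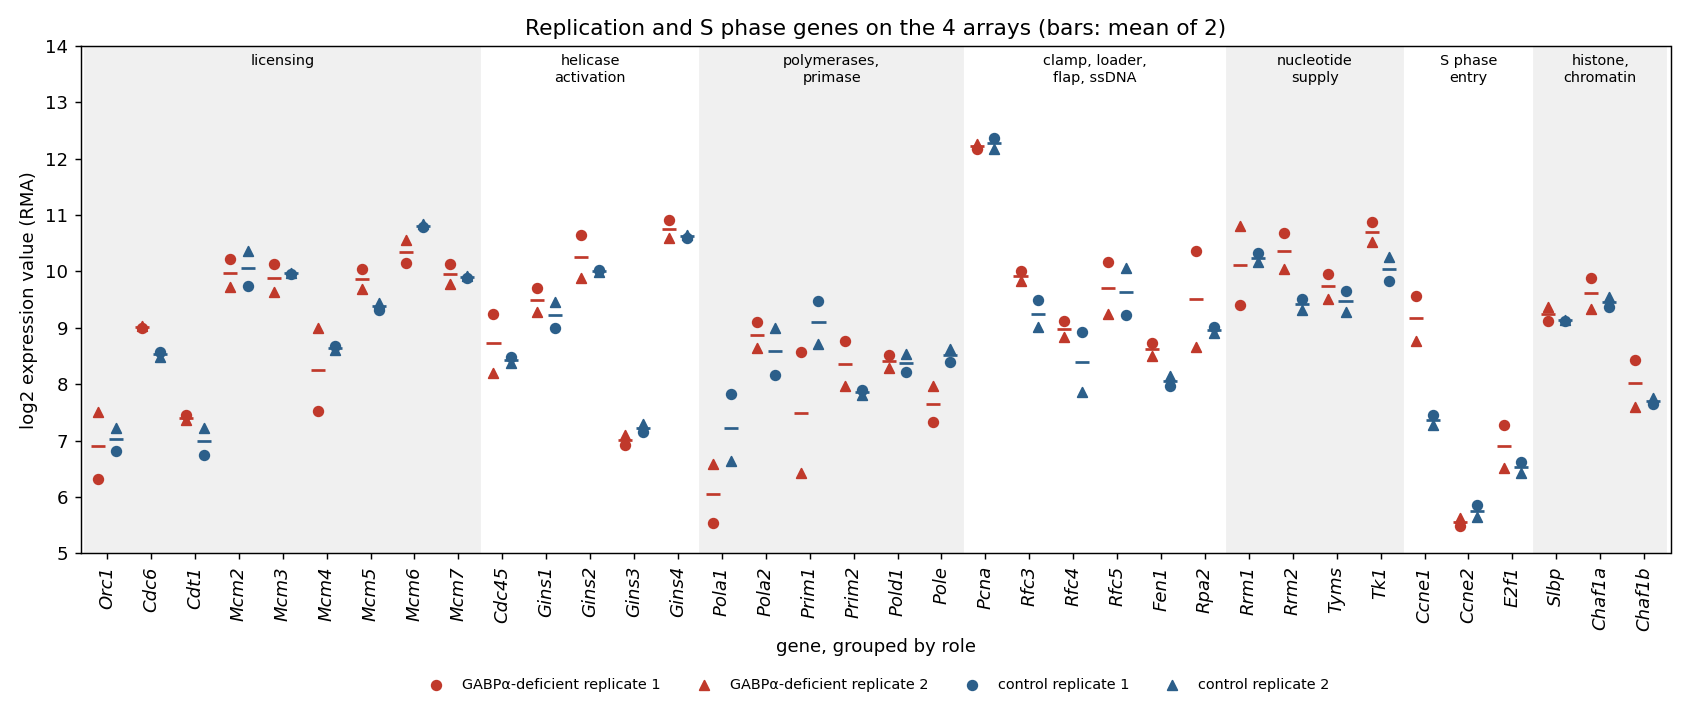
Log2 expression value (vertical axis) of each of the 36 genes (horizontal axis, in blocks by role) on the 4 arrays. GABPα-deficient arrays are red and left, control arrays blue and right, circles are replicate 1, triangles replicate 2, and short bars the mean of 2 arrays. Ccne1 shows the clearest gap between the groups, at 8.77 and 9.56 against 7.45 and 7.27, while Mcm4, Prim1, Rpa2 and Rrm1 show wide gaps between the GABPα-deficient replicates.

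Promoter sequence was compared because E2F and ETS factors are the known regulators of this gene class, and GABP belongs to the ETS factors. RefSeq windows from 250 bases before to 50 bases after the transcription start (GRCm38.p6) were given for 29 of the 36 genes, 31 windows in all. The motifs searched on both strands were CCGGAA as the core bound by ETS factors, the CCAAT box, and 4 spellings of the E2F core. These were TTCCCGC with cytosines in the middle, TTGGCGC with guanines there, and the mixed forms TTCGCGC together with TTGCCGC. A match is a description of the letters and not a binding site. The E2F core was found in 64.5% of the windows of these genes and in 9.6% of all 32851 mouse windows. The ETS core was found in 45.2%, against 14.9% of all windows, and the CCAAT box in 58.1%, against 37.4%. For the 21263 windows of protein-coding genes the shares were 12.1% for the E2F core, 18.7% for the ETS core and 38.2% for CCAAT. The windows also differed in base composition. Their median GC content was 60.0% for the genes described here, 56.3% for protein-coding genes and 52.7% for all windows. Among the 10479 windows with a GC content between 53.5% and 66.2%, the shares were 13.7% for the E2F core, 23.6% for the ETS core and 37.6% for CCAAT.

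The following 5 windows are printed 5′ to 3′ on the gene's strand with motif matches in capitals. Ccne1 is shown as the gene with the largest difference among the 36, Pola1 and Tyms as genes tied to GABP in other cells, and Rrm2 and Mcm6 as members with matches that differ on opposite sides between the groups. The transcription start lies 50 bases before the end of each.
Ccne1 (chr7:38107441-38107740, minus strand): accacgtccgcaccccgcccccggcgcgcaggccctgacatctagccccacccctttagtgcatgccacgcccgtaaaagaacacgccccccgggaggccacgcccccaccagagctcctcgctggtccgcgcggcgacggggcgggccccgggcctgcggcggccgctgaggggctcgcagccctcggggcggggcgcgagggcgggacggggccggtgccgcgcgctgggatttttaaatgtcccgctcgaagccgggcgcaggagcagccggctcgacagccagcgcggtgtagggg
Pola1 (chrX:93632106-93632405, minus strand): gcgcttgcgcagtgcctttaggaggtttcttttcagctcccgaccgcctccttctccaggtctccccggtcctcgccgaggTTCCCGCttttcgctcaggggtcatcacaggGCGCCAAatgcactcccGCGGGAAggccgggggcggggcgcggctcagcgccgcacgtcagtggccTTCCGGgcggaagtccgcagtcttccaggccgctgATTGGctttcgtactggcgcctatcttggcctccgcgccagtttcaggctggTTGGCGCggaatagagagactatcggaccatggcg
Tyms (chr5:30073576-30073875, minus strand): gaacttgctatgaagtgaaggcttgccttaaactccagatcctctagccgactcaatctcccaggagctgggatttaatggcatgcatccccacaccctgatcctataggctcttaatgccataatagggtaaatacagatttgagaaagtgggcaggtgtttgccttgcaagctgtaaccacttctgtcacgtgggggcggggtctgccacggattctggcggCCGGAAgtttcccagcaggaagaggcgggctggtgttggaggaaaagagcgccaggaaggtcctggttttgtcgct
Rrm2 (chr12:24708004-24708303, plus strand): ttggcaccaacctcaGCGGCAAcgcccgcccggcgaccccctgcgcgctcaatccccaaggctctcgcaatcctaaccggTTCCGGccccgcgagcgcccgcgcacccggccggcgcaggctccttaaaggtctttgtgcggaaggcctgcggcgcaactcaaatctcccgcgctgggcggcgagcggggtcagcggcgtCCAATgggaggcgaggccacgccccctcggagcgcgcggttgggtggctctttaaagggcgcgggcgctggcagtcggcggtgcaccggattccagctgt
Mcm6 (chr1:128359656-128359955, minus strand): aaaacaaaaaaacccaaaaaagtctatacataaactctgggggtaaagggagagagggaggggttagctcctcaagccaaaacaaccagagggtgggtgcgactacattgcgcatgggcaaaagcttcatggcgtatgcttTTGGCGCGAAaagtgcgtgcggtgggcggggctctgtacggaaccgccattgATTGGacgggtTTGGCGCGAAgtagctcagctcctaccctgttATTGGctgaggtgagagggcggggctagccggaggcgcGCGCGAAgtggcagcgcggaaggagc
In the Mcm6 window the E2F core was matched 5 times, and TTGGCGC on one strand overlapped TTCGCGC on the other at both −109 and −46 from the start. The Pola1 window held 4 E2F cores, an ETS core with its first base at −72 and a CCAAT box at −37. The Tyms window held an ETS core at −26 and no other match. In the Rrm2 window an ETS core stood at −170, an E2F core at −235 and a CCAAT box at −50. The Ccne1 window held no exact match to any of the spellings searched, and other spellings of these motifs were not searched. Among the windows not printed, an E2F core overlapped a CCAAT box in Mcm7 and Prim1.

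The differences were set beside each motif. The 14 genes with the ETS core had a median log2 difference of 0.28, and the 15 without it 0.12, with 10 above 0 in each. Over all measured genes with a window the medians were 0.044 for the 3432 with the core and 0.18 for the 12182 without. The 19 members with an E2F core had a median of 0.15 and the 10 without one 0.28. Over all measured genes with a window, those medians lay in the same order, at 0.073 for 2297 genes with and 0.17 for 13317 without. For the CCAAT box, the 17 genes that held it had a median of −0.051 with 8 above 0, and all 12 genes without it were above 0, with a median of 0.39. This split was seen after the values were known, no test was made of it, and over all genes the medians were 0.15 with the box and 0.16 without.

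Of the 9 licensing genes, Cdc6 had little spread within either group. Cdc6, the ATPase that helps load the MCM ring, read 8.998 and 9.03 on the GABPα-deficient arrays, against 8.58 and 8.49 on the control arrays (difference 0.48, SE 0.14, limma adjusted p = 0.407). Cdt1, its loading partner, read 7.45 and 7.36 in GABPα-deficient cells, against 6.75 and 7.23 in controls (difference 0.42, SE 0.22). For both genes each GABPα-deficient array lay above each control array. Orc1, the largest subunit of the origin recognition complex, read 6.32 and 7.51 in GABPα-deficient cells and 6.82 and 7.22 in controls, so its GABPα-deficient arrays enclosed the controls and the difference was −0.11 (SE 0.48).

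Of the 6 MCM genes, which encode the subunits of the helicase ring, none passed at unadjusted p, and differences between them were not tested. Mcm5 read 10.05 and 9.68 in GABPα-deficient cells, against 9.32 and 9.44 in controls (difference 0.48, SE 0.19). Mcm6 lay on the other side, at 10.15 and 10.56 in GABPα-deficient cells, against 10.79 and 10.84 in controls (difference −0.46, SE 0.20). The groups did not overlap for either. Mcm4 read 7.52 and 8.99 in GABPα-deficient cells, against 8.68 and 8.60 in controls. One GABPα-deficient array thus lay below both controls and the other above them, and the difference of −0.39 had an SE of 0.55. Mcm2 read 10.23 and 9.72 in GABPα-deficient cells and 9.75 and 10.36 in controls. Mcm3 read 10.13 and 9.63 in GABPα-deficient cells, against 9.95 and 9.98 in controls, and Mcm7 read 10.13 and 9.78, against 9.88 and 9.93. These 3 genes had overlapping groups and differences of −0.079, −0.084 and 0.054, smaller than their SEs of 0.32, 0.23 and 0.18.

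Among the 5 genes that activate the helicase, 4 (80%) had a positive difference, where 67.6% of all single-symbol genes did. None of the 5 passed at unadjusted p. Cdc45, which joins the MCM ring at firing origins, read 9.25 and 8.19 in GABPα-deficient cells, against 8.48 and 8.38 in controls (difference 0.29, SE 0.41). Gins1, Gins2 and Gins4, 3 subunits of the GINS complex, had differences of 0.26, 0.26 and 0.14, with overlapping groups. In Gins2 the values were 10.65 and 9.88 in GABPα-deficient cells, against 10.02 and 9.99 in controls, so the control arrays lay between the GABPα-deficient ones. Gins1 read 9.70 and 9.28 in GABPα-deficient cells and 8.995 and 9.47 in controls, and Gins4 read 10.92 and 10.60, against 10.60 and 10.64. Gins3, the remaining subunit, had the other sign, at 6.93 and 7.11 in GABPα-deficient cells and 7.16 and 7.29 in controls (difference −0.21, SE 0.16), without overlap.

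Of the 6 polymerase and primase genes, 3 (50%) had a positive and 3 a negative difference, where 67.6% of all single-symbol genes were above 0. The 1 gene past unadjusted p was Pole. Pole, the catalytic subunit of the leading-strand polymerase ε, read 7.33 and 7.97 on the GABPα-deficient arrays, against 8.40 and 8.63 on the control arrays. Both GABPα-deficient arrays lay below both controls, by 0.86 on average (SE 0.28, limma adjusted p = 0.410). Pola1, the catalytic subunit of polymerase α, read 5.53 and 6.58 in GABPα-deficient cells, against 7.82 and 6.64 in controls (difference −1.17, SE 0.59, limma adjusted p = 0.449). The nearest arrays of the 2 groups, GABPα-deficient replicate 2 and control replicate 2, were almost level for Pola1. Prim1, the primase subunit that makes the RNA primer, read 8.57 and 6.42 in GABPα-deficient cells, against 9.48 and 8.72 in controls (difference −1.60, SE 0.84, limma adjusted p = 0.457). The low Prim1 mean came mainly from GABPα-deficient replicate 2, and without it the difference was −0.53, against −2.68 without GABPα-deficient replicate 1.

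The other 3 genes had positive differences, and none passed at unadjusted p. Prim2, the other primase subunit, read 8.77 and 7.97 in GABPα-deficient cells, against 7.90 and 7.81 in controls (difference 0.51, SE 0.32). Pola2, the regulatory subunit of polymerase α, read 9.10 and 8.64 in GABPα-deficient cells and 8.17 and 8.99 in controls (difference 0.28, SE 0.37). Pold1, the catalytic subunit of the lagging-strand polymerase δ, read 8.52 and 8.28 in GABPα-deficient cells and 8.22 and 8.53 in controls, a difference of 0.028 (SE 0.20). Prim2 was the only one of these 3 without overlap. Differences between these genes were not tested.

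At the clamp and the lagging strand, 5 of 6 genes (83.3%) had a positive difference, where 67.6% of all single-symbol genes did. Rfc3, a clamp loader subunit, read 10.01 and 9.83 in GABPα-deficient cells, against 9.49 and 9.02 in controls (difference 0.67, SE 0.23, limma adjusted p = 0.414). Fen1, which removes the flap before ligation, read 8.73 and 8.50 in GABPα-deficient cells, against 7.97 and 8.15 in controls (difference 0.56, SE 0.17, limma adjusted p = 0.408). Both GABPα-deficient arrays lay above both controls for these genes. Rfc4, another loader subunit, read 9.12 and 8.84 in GABPα-deficient cells and 8.92 and 7.87 in controls. Rfc5 read 10.16 and 9.25 in GABPα-deficient cells and 9.23 and 10.05 in controls. Groups overlapped for both loader genes, with differences of 0.59 (SE 0.42) and 0.065 (SE 0.46). Rpa2, a subunit of the protein that coats single-stranded DNA, read 10.37 and 8.66 in GABPα-deficient cells, against 9.02 and 8.92 in controls, so its difference of 0.55 (SE 0.64) came from 1 array.

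Pcna, the sliding clamp and a standard mark of cycling cells, had nearly level values on all arrays. It read 12.18 and 12.27 in GABPα-deficient cells and 12.38 and 12.17 in controls, a difference of −0.051 (SE 0.16). Its 2 probe sets, 10461391 and 10487930, held identical values on all 4 arrays, so they count as 1 measurement, and signal of a near-identical copy cannot be told apart from Pcna itself.

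Of the 4 nucleotide supply genes, 3 (75%) had a positive difference, where 67.6% of all single-symbol genes did. Rrm2 read 10.69 and 10.04 on the GABPα-deficient arrays, against 9.52 and 9.32 on the control arrays (difference 0.95, SE 0.28, limma adjusted p = 0.408). Tk1, the S phase thymidine kinase of the salvage pathway, read 10.88 and 10.52 in GABPα-deficient cells, against 9.84 and 10.26 in controls (difference 0.65, SE 0.24). The other Tk1 probe set, 10393431, had the same sign at 0.51 (SE 0.28), and the groups did not overlap on either. Tyms, thymidylate synthase, read 9.96 and 9.52 in GABPα-deficient cells and 9.66 and 9.28 in controls, with overlap and a difference of 0.27 (SE 0.25). Rrm1, the larger subunit of ribonucleotide reductase, read 9.40 and 10.81 in GABPα-deficient cells, against 10.33 and 10.16 in controls. The GABPα-deficient arrays enclosed the controls for Rrm1, whose difference of −0.14 had an SE of 0.53.

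Of the 3 G1/S regulators, Ccne1 was the 1 gene past unadjusted p. Ccne1 read 9.56 and 8.77 on the GABPα-deficient arrays, against 7.45 and 7.27 on the control arrays (difference 1.80, SE 0.33, limma adjusted p = 0.318). The gap between the groups was wider than the gap between replicates, and the difference stayed between 1.40 and 2.20 whichever array was left out. Ccne2, its close relative, read 5.49 and 5.63 in GABPα-deficient cells, against 5.87 and 5.65 in controls (difference −0.20, SE 0.16). E2f1, the activator that drives many S phase genes, read 7.28 and 6.51 in GABPα-deficient cells and 6.63 and 6.43 in controls (difference 0.37, SE 0.32). Without GABPα-deficient replicate 1 the E2f1 difference was −0.017.

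The genes of histone supply and chromatin assembly showed the smallest range. Slbp, which binds the stem-loop of histone messages, read 9.13 and 9.37 in GABPα-deficient cells, against 9.13 and 9.14 in controls (difference 0.12, SE 0.16), and its other probe set, 10412559, gave 0.16 (SE 0.22). Chaf1a and Chaf1b, subunits of the CAF-1 chaperone, had differences of 0.15 (SE 0.25) and 0.31 (SE 0.33). Chaf1a read 9.88 and 9.34 in GABPα-deficient cells and 9.37 and 9.55 in controls. Chaf1b read 8.43 and 7.60 in GABPα-deficient cells and 7.65 and 7.76 in controls. All 3 genes had overlapping groups.

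**Figure D2:**
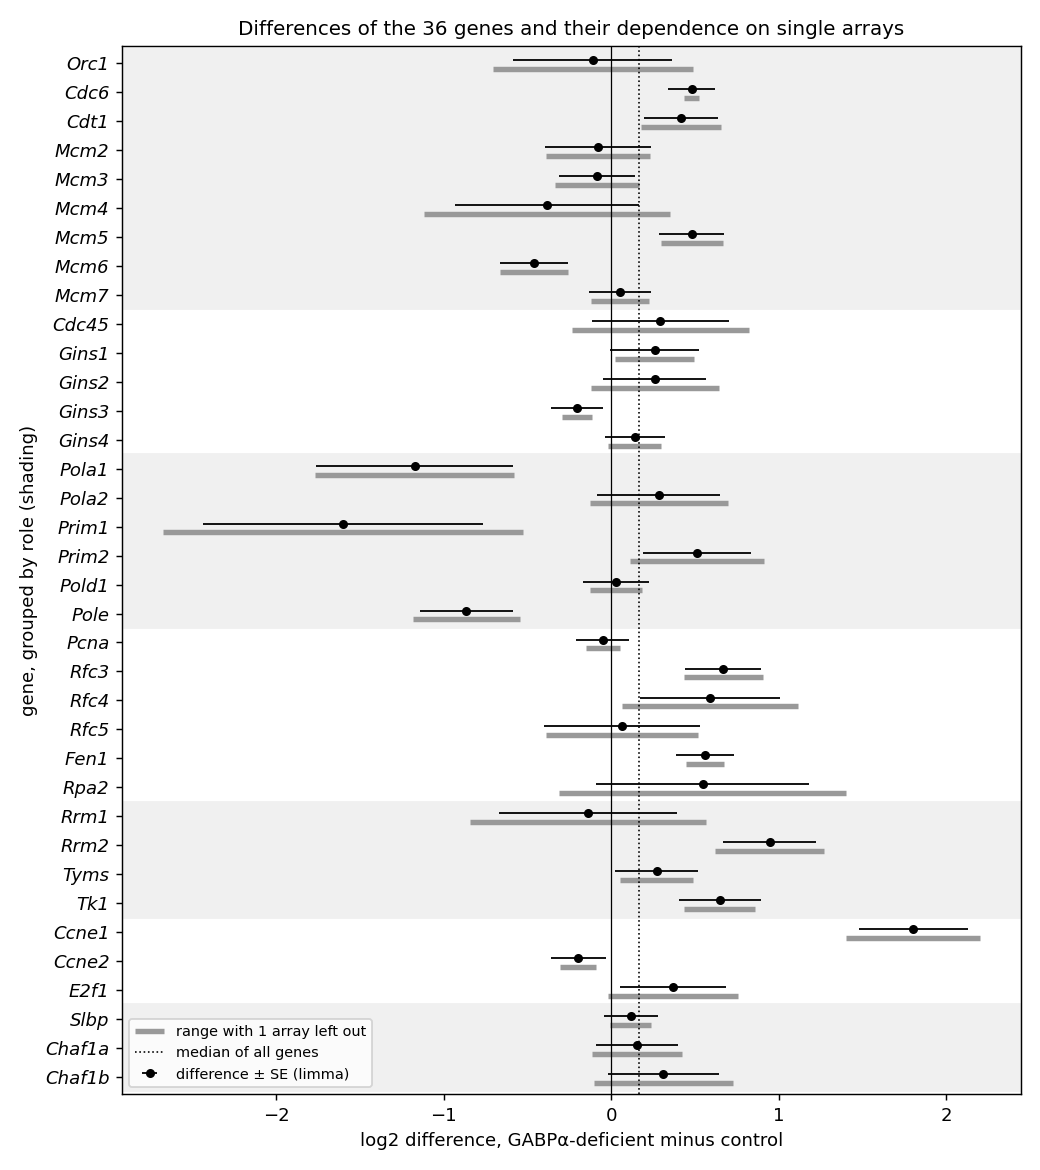
Log2 difference, GABPα-deficient minus control (horizontal axis), for each gene, in shaded blocks by role. Points with bars are the difference ± SE of limma's fit, grey bars the range when 1 of the 4 arrays is left out, and the dotted line the median of all genes at 0.16. Ccne1, Rrm2, Tk1, Rfc3, Fen1, Mcm5 and Cdc6 reach no lower than 0.30 (Mcm5), and Pole, Pola1 and Prim1 no higher than −0.53 (Prim1), whichever array is left out, while many other bars cross 0.

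Much of the variation in these genes lay between the GABPα-deficient replicates. The median gap between the GABPα-deficient arrays was 0.48 log2 units over the 36 genes, against 0.19 between the control arrays. Over all single-symbol genes the median gaps were 0.22 and 0.20, and over the 12861 genes at least as bright as the dimmest of the 36 they were 0.28 and 0.24. Gaps above 1 log2 unit were found for 7 genes between the GABPα-deficient arrays (Orc1, Mcm4, Cdc45, Pola1, Prim1, Rpa2 and Rrm1) and for 2 between the controls (Pola1 and Rfc4). Such gaps were not counted over all genes. GABPα-deficient replicate 1 held the highest of the 4 values for 22 of the 36 genes, or 61.1%, against 33.3% of all genes. It held the lowest value for 8, or 22.2%, against 17.4% of all genes. Those 8 were Orc1, Mcm4, Mcm6, Gins3, Pola1, Pole, Rrm1 and Ccne2. GABPα-deficient replicate 2 held the highest value for 5 of the 36 genes, or 13.9%, against 35.1% of all genes. It held the lowest value for 9 of the 36, a larger share than the 17.2% of all genes. Leaving out GABPα-deficient replicate 1 brought the median difference of the list to −0.010, with 17 of 36 genes above 0 and 1 gene higher at unadjusted p, and leaving out GABPα-deficient replicate 2 brought it to 0.46, with 25 above 0 and 10 higher.

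**Figure D3:**
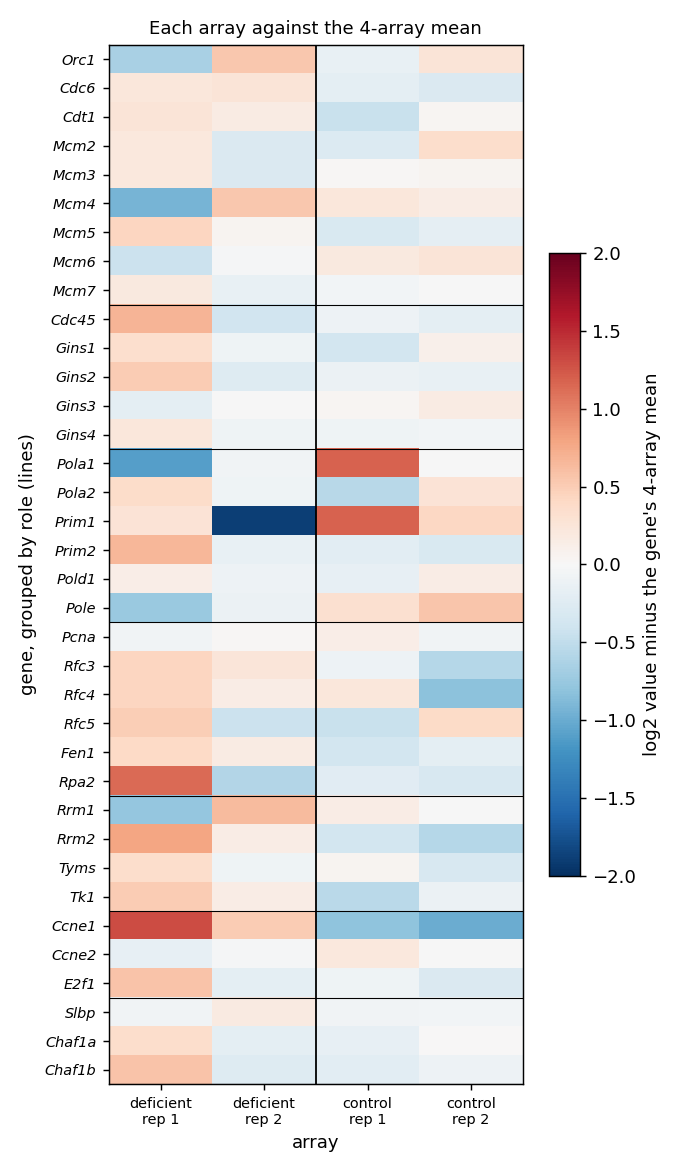
Each cell shows a gene's log2 value on 1 array minus its mean over the 4 arrays (colour, from −2 in blue to 2 in red), with GABPα-deficient arrays left of the line and controls right. The column of GABPα-deficient replicate 1 is red for most genes but blue for Orc1, Mcm4, Mcm6, Pola1, Pole and Rrm1, and Prim1 is lowest on GABPα-deficient replicate 2.

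Gene length moved with the differences. Genomic spans were taken from RefSeq (GRCm38.p6). Across the 36 genes, difference and span had a rank correlation of −0.38, beside −0.22 across all 19920 single-symbol genes, whose points share the same 4 arrays. The 25% of genes with the longest spans had a median difference of 0.078 and the 25% with the shortest 0.23. Pola1 is the longest of the 36 genes at 327.6 kb and lay on the low side, whereas Prim2, at 216.0 kb, lay above its controls. The part of length in these differences was not tested.

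The pathway holds many further genes, of which 98 of 101 listed ones were measured. Their median difference was −0.16, opposite in sign to the 0.21 of the 36 genes, beside 0.16 over all single-symbol genes. Without GABPα-deficient replicate 1 the medians were −0.050 for the further genes and −0.010 for the 36. Of the 98, 37 (37.8%) were above 0 and 61 below, where 67.6% of all genes were above 0. At unadjusted p, 9 (9.18%) were higher and 12 (12.2%) lower in GABPα-deficient cells, beside 6.99% and 6.37% of all genes. None of the 98 passed the adjusted threshold (lowest limma adjusted p = 0.222). Other replication genes, 42 in number, had a median of −0.18, with 4 (9.52%) higher and 5 (11.9%) lower. Their median span was 27.6 kb, against 14.6 kb for the 36 genes. Gmnn, which encodes geminin, the inhibitor of CDT1, read 10.07 and 9.91 in GABPα-deficient cells, against 8.99 and 9.19 in controls (difference 0.90, SE 0.16). Recql4, a helicase of replication start, differed by 0.82 (SE 0.16) and Rnaseh2c, a subunit of ribonuclease H2, by 0.51 (SE 0.15). On the low side, Pold3, an accessory subunit of polymerase δ, read 6.11 and 7.83 in GABPα-deficient cells, against 9.26 and 9.73 in controls (difference −2.52, SE 0.66). Topoisomerase Top1 differed by −0.95 (SE 0.22) and Wdhd1, which couples polymerase α to the helicase, by −0.87 (SE 0.23).

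Of 26 other genes of S phase entry and the CDK2 axis, 2 (7.69%) were higher and 7 (26.9%) lower at unadjusted p, with a median of −0.26. Over all single-symbol genes the shares were 6.99% and 6.37%. E2f8, a repressor of the E2F family, read 8.43 and 8.37 in GABPα-deficient cells, against 9.47 and 9.39 in controls (difference −1.03, SE 0.14, limma adjusted p = 0.270). The activator E2f3 read 6.44 and 5.82 in GABPα-deficient cells, against 8.49 and 7.79 in controls (difference −2.01, SE 0.37). Fbxo5, which encodes the APC/C inhibitor EMI1, read 4.82 and 5.69 in GABPα-deficient cells, against 9.26 and 7.62 in controls (difference −3.18, SE 0.69). E2f4, mostly a partner of pocket proteins, differed by 0.76 (SE 0.20) and Ccna2, the S phase cyclin A2, by 0.52 (SE 0.16). Among 15 other nucleotide supply genes, with a median of 0.061, 2 (13.3%) were higher at unadjusted p and none was lower. The 2 were Mthfd1, a folate enzyme, at 1.41 (SE 0.15) and Nme1, a nucleoside diphosphate kinase, at 0.50 (SE 0.16). The 15 other genes of histones and chromatin assembly had a median of −0.26. Of these, Cenpa, the centromeric histone H3, was the 1 gene (6.67%) past unadjusted p, at 1.42 (SE 0.27).

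None of the genes tied to GABP in fibroblasts passed the adjusted threshold. Tyms and Pola1 had differences of 0.27 and −1.17. Skp2, which encodes the ubiquitin ligase subunit that marks p27 for destruction, read 6.77 and 7.17 in GABPα-deficient cells and 7.52 and 6.83 in controls, with overlap and a difference of −0.20 (SE 0.32). Cdkn1b, which encodes p27, an inhibitor of cyclin E kinase, read 7.01 and 7.69 in GABPα-deficient cells, against 8.53 and 8.00 in controls (difference −0.92, SE 0.34, limma adjusted p = 0.421), without overlap.

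Mitosis and G2/M genes, 29 measured of 30 listed, had a median of −0.025 with 14 (48.3%) above 0, beside 67.6% of all genes. At unadjusted p, 5 (17.2%) were higher and 1 (3.45%) lower in GABPα-deficient cells, beside 6.99% and 6.37% of all genes. The shares of the 36 genes were 13.9% and 2.78%. Ube2c of the anaphase ubiquitin machinery differed by 0.76 (SE 0.17), the kinase gene Plk1 by 0.77 (SE 0.18), and survivin, Birc5, by 0.62 (SE 0.16). Prc1, a spindle midzone protein, differed by −1.54 (SE 0.44).

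**Figure D4:**
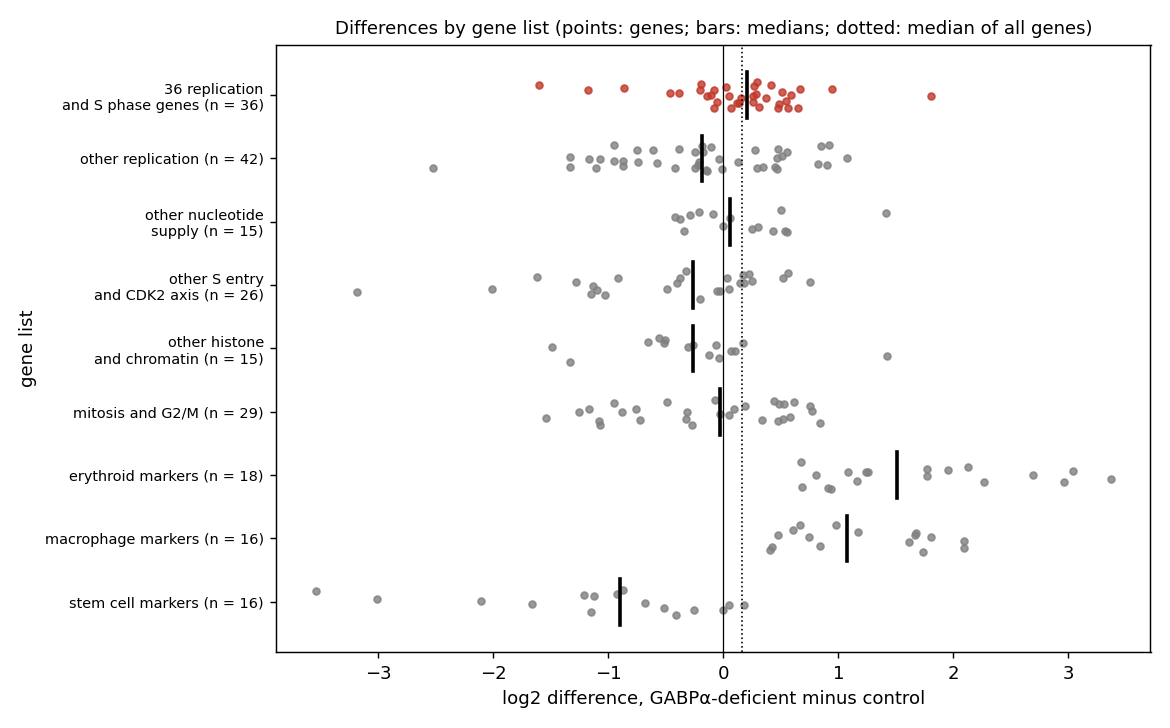
Log2 difference, GABPα-deficient minus control (horizontal axis), of each gene (points) in the 36 replication and S phase genes (red, top) and in other lists (grey), with list medians as bars and the median of all genes as a dotted line. The 36 genes centre on 0.21 and the other replication genes on −0.18, while erythroid markers centre on 1.51 and stem cell markers on −0.90.

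Markers of other cell types moved with the groups on the same arrays. Over all single-symbol genes, 67.6% had a difference above 0, and at unadjusted p 6.99% were higher and 6.37% lower. Erythroid markers, 18 measured, were all above 0 with a median difference of 1.51, and 12 (66.7%) were higher at unadjusted p. Their summed level on the linear scale was 16009 and 18121 on the GABPα-deficient arrays, against 5542 and 5382 on the control arrays. The red cell factor Klf1 read 9.68 and 9.65 in GABPα-deficient cells, against 7.90 on both control arrays. Macrophage markers, 16 measured, were also all above 0, with a median of 1.08 and 9 (56.2%) higher at unadjusted p. Their sums were 4916 and 2746 in GABPα-deficient cells, against 1312 and 1501 in controls. Stromal and endothelial markers had a median of 0.64, with 9 of 16 (56.2%) higher. Stem cell markers had a median of −0.90 with 8 of 16 (50%) lower, and megakaryocyte markers one of −0.81 with 4 of 8 (50%) lower. Granulocyte and monocyte markers had a median of −0.27 with 2 of 15 (13.3%) lower. B and plasma cell markers had a median of 0.31 with 4 of 14 (28.6%) higher, and T and NK cell markers 0.38 with 4 of 13 (30.8%) higher. RMA values hold no zeros and no detection calls were used, so no marker can be said to be at 0. The part of these cell types in the values of the 36 genes was not tested, and fewer cells of a type and less RNA per cell cannot be told apart in bulk RNA.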

How the data were processed

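Each of the 4 RNA samples, 2 GABPα-deficient and 2 control, was hybridised to a whole-transcript mouse array (GeneChip Mouse Gene 1.0 ST). The deposited values were log2 expression values made by the authors with RMA and Partek, per the submitters' processing notes, with no versions given; RMA includes a background correction, quantile normalization and a summary over probes, so values are relative between arrays. They were used as deposited. The authors' build and annotation: not given in the sources used here. Every value column belonged to a labelled sample. Probe sets were named from the platform annotation, updated through Entrez numbers in RefSeq (GRCm38.p6): 21789 had 1 symbol, 1621 several and 12146 none. The brightest probe set over all 4 arrays stood for a gene.

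limma 3.58.1 in R 4.3.3 (lmFit, eBayes) was fitted to all 35556 probe sets with genotype as the only term and Benjamini-Hochberg adjustment, and was tested on simulated data. Errors are the SE of that moderated fit or the SD of 2 arrays. Lists were described by counts and medians. All 36 genes were named. From each other pathway or mitosis list, up to 3 genes per direction with the smallest unadjusted p under 0.05 were named, besides Gabpa, Kit, Flt3 and the genes tied to GABP; Klf1 was named after its values were seen. The genes, the lists and the rule were chosen with earlier results of these data known. The promoter windows of Rrm2 and Mcm6 were chosen after their matches were seen. Alternatives covered normalization, dim probe sets, the variance prior, array weights, a replicate block, left-out arrays and the choice of probe set. Plots used matplotlib 3.10.9 (Python 3.11.15).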

Additional observations from a re-analysis of the deposited data

How the results depend on the processing

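Under every alternative run, 0 of the 36 genes passed an adjusted p under 0.05. The count higher at unadjusted p, 5 as reported, was 2 after subtraction of array medians, 2 with an intensity trend in eBayes, 3 with a replicate block, and 1 to 10 with 1 array left out. The count lower, 1 as reported, was 0 after cyclic loess, 2 after subtraction of array medians, 0 with an intensity trend, 2 with a replicate block, and 0 to 4 with 1 array left out. The cause of these moves was not tested. The median difference of the 36 genes ran from 0.13 to 0.26 under the settings that kept all arrays and from −0.010 (without GABPα-deficient replicate 1) to 0.46 (without GABPα-deficient replicate 2) with 1 array left out. That of the other replication and S phase genes stayed below 0, from −0.31 to −0.050. The median of all probe sets was 0.15 and moved to −0.0045 after cyclic loess, which left the 36 genes 0.16 above it, against 0.062 as reported; after it the split over all probe sets was 1191 higher and 2349 lower, against 2360 and 1865 as reported. Cyclic loess gave Pold1 a difference of −0.018, and subtraction of array medians gave −0.027 for Mcm7, −0.053 for Pold1 and −0.016 for Rfc5, all opposite in sign to the reported values. Sign changes with 1 array left out were not counted over all genes. Among the 36, 18 genes took the other sign at least once. These were Cdc45 (−0.24 to 0.82), Chaf1a (−0.12 to 0.43), Chaf1b (−0.10 to 0.72), E2f1 (−0.017 to 0.75), Gins2 (−0.12 to 0.64), Gins4 (−0.019 to 0.30), Mcm2 (−0.39 to 0.23), Mcm3 (−0.33 to 0.17), Mcm4 (−1.12 to 0.35) and Mcm7 (−0.12 to 0.23). The others were Orc1 (−0.71 to 0.49), Pcna (−0.15 to 0.052), Pola2 (−0.13 to 0.70), Pold1 (−0.13 to 0.19), Rfc5 (−0.39 to 0.52), Rpa2 (−0.31 to 1.40), Rrm1 (−0.84 to 0.56) and Slbp (−0.0054 to 0.24). A left-out array leaves 1 array in its group, which the fit takes to vary like the others. The labels state no pairing of same-numbered arrays, whose deviations correlated at −0.088 over all probe sets. With 2 arrays a group, this value cannot show whether samples were paired. With 2 arrays against 2 the block cannot alter a difference, only its error.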
